A study of Mus musculus with 14 samples.

Results

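Interferon-stimulated genes were followed through 7 purified populations of mouse blood cells. The list holds 46 genes, chosen by symbol from known members of the interferon response, and includes the IFIT, OAS, Mx, IFITM, GBP and IRG families. Of these, 43 were matched to a probe, by 57 probes in all, among the 20284 genes that the arrays name. Mx1, Mx2 and Ifi205 were not matched to a probe and have no value, and Oas1g did not rise well above background anywhere.

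All cells were primary cells of C57BL/6 mice, and total RNA was hybridised to 14 single-colour Agilent arrays, 2 for each group. Wild-type (WT) granulocyte-monocyte progenitors (GMP) and GMP labelled IRF8KO came from bone marrow. IRF8 belongs to the interferon regulatory factors, DNA-binding proteins that direct the development of several myeloid lineages. Both GMP groups were sorted as lineage-, IL-7R-, Sca-1- and CD115-negative cells that carry CD117 and CD16/32. Wild-type common dendritic cell progenitors (CDP), which carry CD115, CD135 and intermediate CD117, wild-type precursors of classical dendritic cells (pre-cDC), which carry CD11c, CD135 and CD172a without MHC-II, and wild-type neutrophils (Neu), CD11b+ and high in Ly6G, also came from bone marrow. The wild-type CD4+ and CD8+ classical dendritic cells (cDC), CD11c+ and MHC-II+, came from spleen. The CD4+ cDC were sorted with magnetic beads alone, the neutrophils by flow cytometry alone, and the other groups by both in turn. No treatment or infection is named for any group. The labels also name Ly6C+ monocytes, which were not analysed here. Nothing in the labels says whether the 2 arrays of a group came from separate animals. The p-values therefore rest on the spread between samples that may be technical replicates.

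Interferons are secreted proteins that act through cell-surface receptors. The type I receptor (IFNAR) and the type III receptor signal through Janus kinases to a complex with STAT2 and IRF9, which binds an element called ISRE in the promoters of its target genes. Interferon gamma has a receptor of its own and is the stronger inducer of the GTPases of the GBP and IRG families. The products of the target genes sense foreign nucleic acid, block translation or entry of viruses, degrade RNA, or conjugate the ubiquitin-like protein ISG15 to other proteins. Many of them are also transcribed at a low level in unstimulated blood cells, and stem cells are known to keep some of them on.

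Stretches of 5 promoters are shown because their genes were called at least 4-fold higher both in neutrophils than in WT GMP and in CD4+ cDC than in CD8+ cDC, and hold an ISRE-like match before the transcription start. The sequences are from RefSeq, build GRCm38.p6, written 5′ to 3′ on the strand of the gene, and capitals mark letters that match GAAA, any 2 bases and GAAA again, or the reverse complement of this motif.
Ifit1, chr19:34640779-34640838, plus strand: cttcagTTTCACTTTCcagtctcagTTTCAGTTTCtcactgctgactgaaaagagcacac
Ifit3, chr19:34583382-34583441, plus strand: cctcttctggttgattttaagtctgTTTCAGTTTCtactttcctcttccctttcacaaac
Isg15, chr4:156200850-156200909, minus strand: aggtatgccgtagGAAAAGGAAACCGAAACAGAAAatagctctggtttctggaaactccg
Oas3, chr5:120777700-120777759, minus strand: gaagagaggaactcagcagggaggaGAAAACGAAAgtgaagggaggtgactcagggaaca
Rsad2, chr12:26456538-26456597, minus strand: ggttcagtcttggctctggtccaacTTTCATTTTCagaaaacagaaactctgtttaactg
The match nearest the start began at position -85 in Ifit1, -122 in Ifit3, -66 in Isg15, -75 in Oas3 and -120 in Rsad2, counted from the transcription start, and the capitals of Isg15 hold overlapping matches. Promoter windows, 250 bases before to 50 after the start, were in the table for 34 of the 46 members. A match on either strand was present for 20 of these 34 genes (58.8%), against 1079 of all 27025 genes in the table (3.99%). By window, 21 of 39 member windows (53.8%) and 1131 of all 32851 windows (3.44%) held one. A match is a description of these letters and does not show a bound site, and its absence from this window says nothing about the factors. By position in the genome, 22 of the 46 members lie in 9 clusters with at most 3 other genes between neighbours, such as Ifit2, Ifit3 and Ifit1 on chromosome 19 and Ifitm2, Ifitm1, Ifitm3 and Ifitm6 on chromosome 7.

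Levels are given as log2 of the processed spot signal minus the array's 75th percentile, so that 0 marks a probe at that percentile and a difference of 1 is 2-fold. Levels of different genes come from different probes and are not compared. A gene was tested in a comparison if both arrays of either group were well above background. It was called at a limma adjusted p (Benjamini-Hochberg, over all genes tested) under 0.05. Where groups are said not to overlap, this describes 2 arrays a group for genes named by size, and adds nothing to the call. How many of all genes did not overlap was not counted. Where neither array of the dimmer group was well above background, an at-least fold stands in place of the fitted one. It divides the brighter group's mean by a floor, the mean over the dim arrays of the probe's own signal or, if that is higher, the weakest signal that still counted as well above background. The 75th percentile signal was between 77.4 and 516 on the larger array design, lowest in CDP, and 566 and 661 on the CD4+ cDC pair, which is of a smaller design. Arrays of 1 group correlated at 0.988 to 0.995. Each group's own cell type markers were above background on its arrays. The counts were 6 of 6 in WT GMP and in neutrophils and 4 of 4 in CDP and in pre-cDC. Both kinds of cDC had 5 of 5. Such counts alone do not tell all the groups apart. For example, 5 of 5 CD4+ cDC markers were also above background in CD8+ cDC. All CDP markers were so in both GMP groups, pre-cDC and CD8+ cDC, and all GMP markers in CDP, pre-cDC and neutrophils. The WT and IRF8KO GMP arrays shared a slide, as did the CD8+ cDC and Neu arrays. In every other comparison slide and group cannot be told apart. The Irf8 probe read 4.79 and 4.87 on the WT GMP arrays and 6.17 and 6.22 on the arrays labelled IRF8KO GMP. It was thus higher on the latter (log2 difference 1.36, SE 0.07, limma adjusted p = 1.39e-05). Whether that probe lies in the deleted part is not known, so it cannot check the labels.

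Across the 43 measured members, neutrophils and CD4+ cDC stood above the other groups. On the larger design the median of the member means was 3.02 in neutrophils and 1.57 in CD8+ cDC. It was 0.85 in CDP, 0.90 in pre-cDC, 0.97 in WT GMP and 1.29 in the GMP labelled IRF8KO. On the probes shared by both designs, where levels sit lower throughout, it was 2.20 in CD4+ cDC and 2.04 in neutrophils, against 0.47 in CD8+ cDC and -0.48 in CDP. Of the 42 members above background in some group, 23 had their highest mean in neutrophils and 14 in CD4+ cDC. For 24 members these groups were the top pair. The remaining 5 peaked in pre-cDC (Bst2, Ifi35 and Ifi44), in CDP (Gbp3) or in CD8+ cDC (Phf11a). Some of these ranks rest on small gaps to the second group, such as 0.03 for Parp9 and 0.10 for Isg15. The CD4+ cDC arrays also differ from the others in design and slide, and CD4+ cDC against neutrophils was not tested. The members did not move as 1 block. Of the 43, 16 were called in all 6 comparisons of the larger design, 12 in 5 and 9 in 4. Many of them went up in one step and down in the next. Calls were common among all genes too. They reached 25.2% of the genes tested between the GMP groups and 74.7% to 92.4% in the other comparisons of that design. The number of comparisons with a call therefore does not set the members apart.

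**Figure D1:**
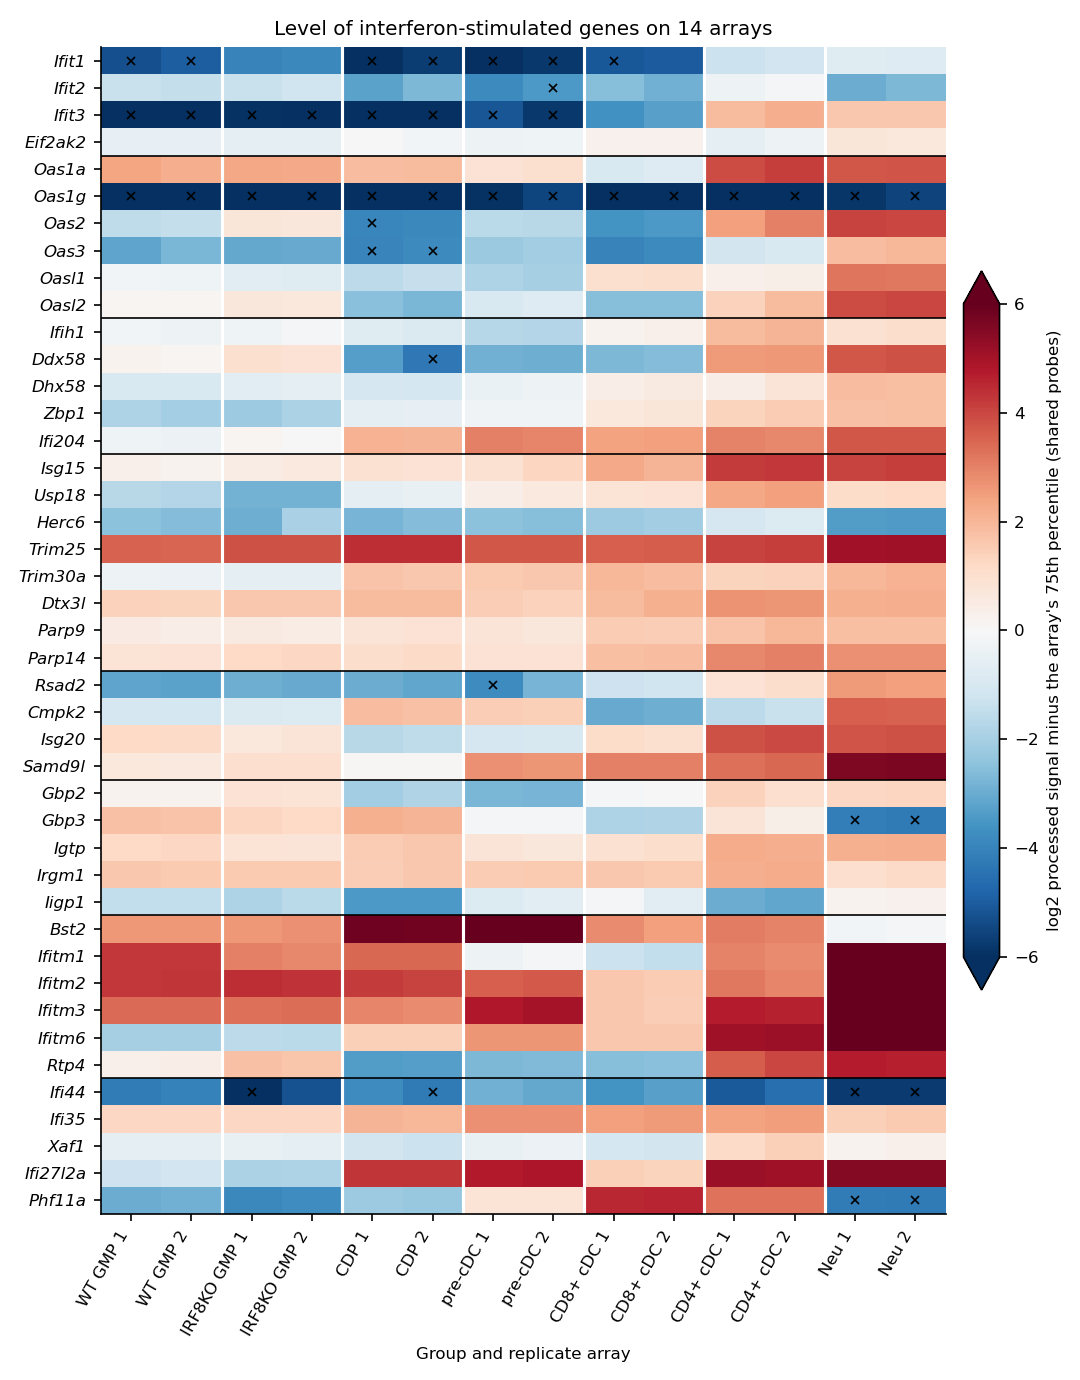
Level of each of the 43 measured members (rows, grouped by role) on each of the 14 arrays (columns, grouped by population), as log2 signal relative to the array's 75th percentile over the shared probes; x marks a value not well above background, and colours compare arrays within a row, not genes. The columns of neutrophils and CD4+ cDC are the brightest for most members, with medians of 2.04 and 2.20, while Gbp3, Bst2 and Phf11a are dim in neutrophils.

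Neutrophils carried far more of most interferon-stimulated transcripts than the GMP from which the granulocyte lineage descends. Of 42 members tested, 34 were higher in neutrophils and 7 lower, 28 and 6 of them by at least 2-fold, and the median log2 difference was 1.92. Over all 12520 genes tested, 92.4% were called, in nearly equal parts higher and lower (46.4% lower), and the median was -0.00. Being called was thus common among all genes here, while the direction of the members' calls was uneven: 33.9% of all genes were at least 2-fold higher and 36.5% at least 2-fold lower. Ifit1 and Ifit3 were tested through the neutrophil arrays alone and Gbp3, Ifi44 and Phf11a through the GMP arrays alone. Of the 37 members above background in both groups, 32 were higher and 4 lower, with a median of 2.17. In such bulk samples, fewer cells of a type and less RNA per cell cannot be told apart. Markers of other cells differed too, given as the log2 of a list's summed linear level. The B cell list read 0.48 to 0.57 in neutrophils against -3.40 to -2.24 in WT GMP, with 3 of 4 markers above background on both neutrophil arrays, 0 of 4 on the GMP arrays and Pax5 on neither pair. The T and NK cell list read 2.45 to 2.48 against 0.56 to 0.67, with only Cd3e above background on both arrays of either group. The plasmacytoid dendritic cell list read 8.80 to 8.84 against 7.03 to 7.24 (4 and 3 of 6 markers above background), the red cell list 3.78 to 3.83 against 2.98 to 2.99 (2 and 3 of 3) and the monocyte list 2.92 to 2.98 against 4.49 to 4.62 (2 and 3 of 4). Their part in the result was not tested.

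The IFIT proteins, which bind foreign RNA and block its translation, were divided, with Ifit1 and Ifit3 higher and Ifit2 lower in neutrophils. Ifit3 read -5.59 and -5.73 in WT GMP, neither well above background, and 2.59 and 2.61 in neutrophils, at least 74.6-fold higher (limma adjusted p = 6.73e-09). Ifit1 read -4.07 and -3.77 in WT GMP, again not above background, and 0.22 and 0.22 in neutrophils, at least 13.6-fold higher (adjusted p = 3.49e-07). The groups did not overlap for either gene. Their neighbour Ifit2 went from -0.15 and -0.21 in GMP to -1.99 and -1.72 in neutrophils (log2 difference -1.67, SE 0.20, adjusted p = 6.15e-05). Eif2ak2, the RNA-dependent kinase PKR, was 0.97 higher (SE 0.06).

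The 5 tested members of the OAS family, enzymes that make short oligoadenylates to switch on RNase L, and their relatives were all higher in neutrophils. Oas2 read -0.35 and -0.23 in GMP and 5.003 and 4.978 in neutrophils, 38.8-fold higher (limma adjusted p = 1.9e-10). Oas3 was 4.66 higher on the log2 scale (SE 0.15), Oasl2 3.63 (SE 0.08), Oasl1 3.17 (SE 0.09) and Oas1a 1.25 (SE 0.08). All of these arrays were well above background, and the neutrophil arrays were the brighter pair for each gene.

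The sensors of nucleic acid rose as well, 5 of 5 tested. Ddx58, which encodes the RNA helicase RIG-I, went from 1.41 and 1.32 to 4.70 and 4.78 (log2 difference 3.38, SE 0.25, limma adjusted p = 2.75e-06). Dhx58, a regulator of RIG-I-like helicases, was 2.53 higher and Ifih1, which encodes MDA5, 0.98 higher, though the mean of the Ifih1 probes (0.44) was not called. Among the DNA sensors, Ifi204 was 3.81 and Zbp1 3.51 higher. Zbp1 read -0.64 and -0.86 in GMP and 2.74 and 2.78 in neutrophils, with no overlap.

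All 4 members that act on nucleotides or RNA were higher too. Rsad2, which encodes the antiviral radical enzyme viperin, read -1.98 and -2.02 in GMP and 3.53 and 3.45 in neutrophils, 44.9-fold higher (limma adjusted p = 1.36e-07). Its genomic neighbour Cmpk2, a nucleotide kinase, was 4.38 higher (SE 0.06). Samd9l was 4.82 and the exonuclease gene Isg20 2.39 higher. In the group of ISG15 and ubiquitin or ADP-ribose enzymes, 7 of 8 were higher, though the call of Dtx3l (0.58) ended under array median scaling (0.10). Isg15 itself went from 1.49 and 1.39 to 5.05 and 5.12, 12.5-fold higher (adjusted p = 1.36e-08). Usp18, the protease that removes ISG15 and damps the IFNAR signal, was 2.61 higher and Trim25 1.32 higher. Herc6, the mouse ISG15 ligase, was lower by the fit (-1.07, SE 0.26), but read 0.02 after normexp background correction.

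Membrane proteins gave both the largest rise and 1 of the clear falls. Ifitm6 read -0.80 and -0.82 in WT GMP and 10.05 and 10.12 in neutrophils, 1899-fold higher (limma adjusted p = 1.53e-11). Its family members Ifitm3, Ifitm1 and Ifitm2, which restrict virus entry, were 2.42, 1.67 and 1.53 higher on the log2 scale. Rtp4, a chaperone of receptor transport, was 4.11 higher. Bst2, the tether that holds budding virions at the cell surface, fell from 3.82 and 3.79 to 0.78 and 0.90 (log2 difference -2.96, SE 0.12, adjusted p = 4.73e-08).

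The GTPases that respond most to interferon gamma were divided. Gbp3 read 2.97 and 2.90 in GMP and was not above background in neutrophils, at least 56.9-fold lower (limma adjusted p = 8.99e-11). Irgm1, a regulator of the IRG family, fell by 0.71 on the log2 scale (SE 0.06), while Iigp1 was 1.48, Gbp2 0.83 and Igtp 0.69 higher. The calls of Gbp2 and Igtp were lost under array median scaling (0.35 and 0.21). Among the remaining members, Ifi27l2a, a small membrane protein gene, rose 89.4-fold. Phf11a, a PHD-finger gene, was not above background in neutrophils, at least 2.24-fold lower than in GMP, but turned to 0.08 after normexp. Ifi44 was not above background in neutrophils either; it was called lower, its GMP signal lay too close to the floor for a fold, and it turned to 0.40 after normexp. Ifi35 was the only tested member without a call (0.04).

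**Figure D2:**
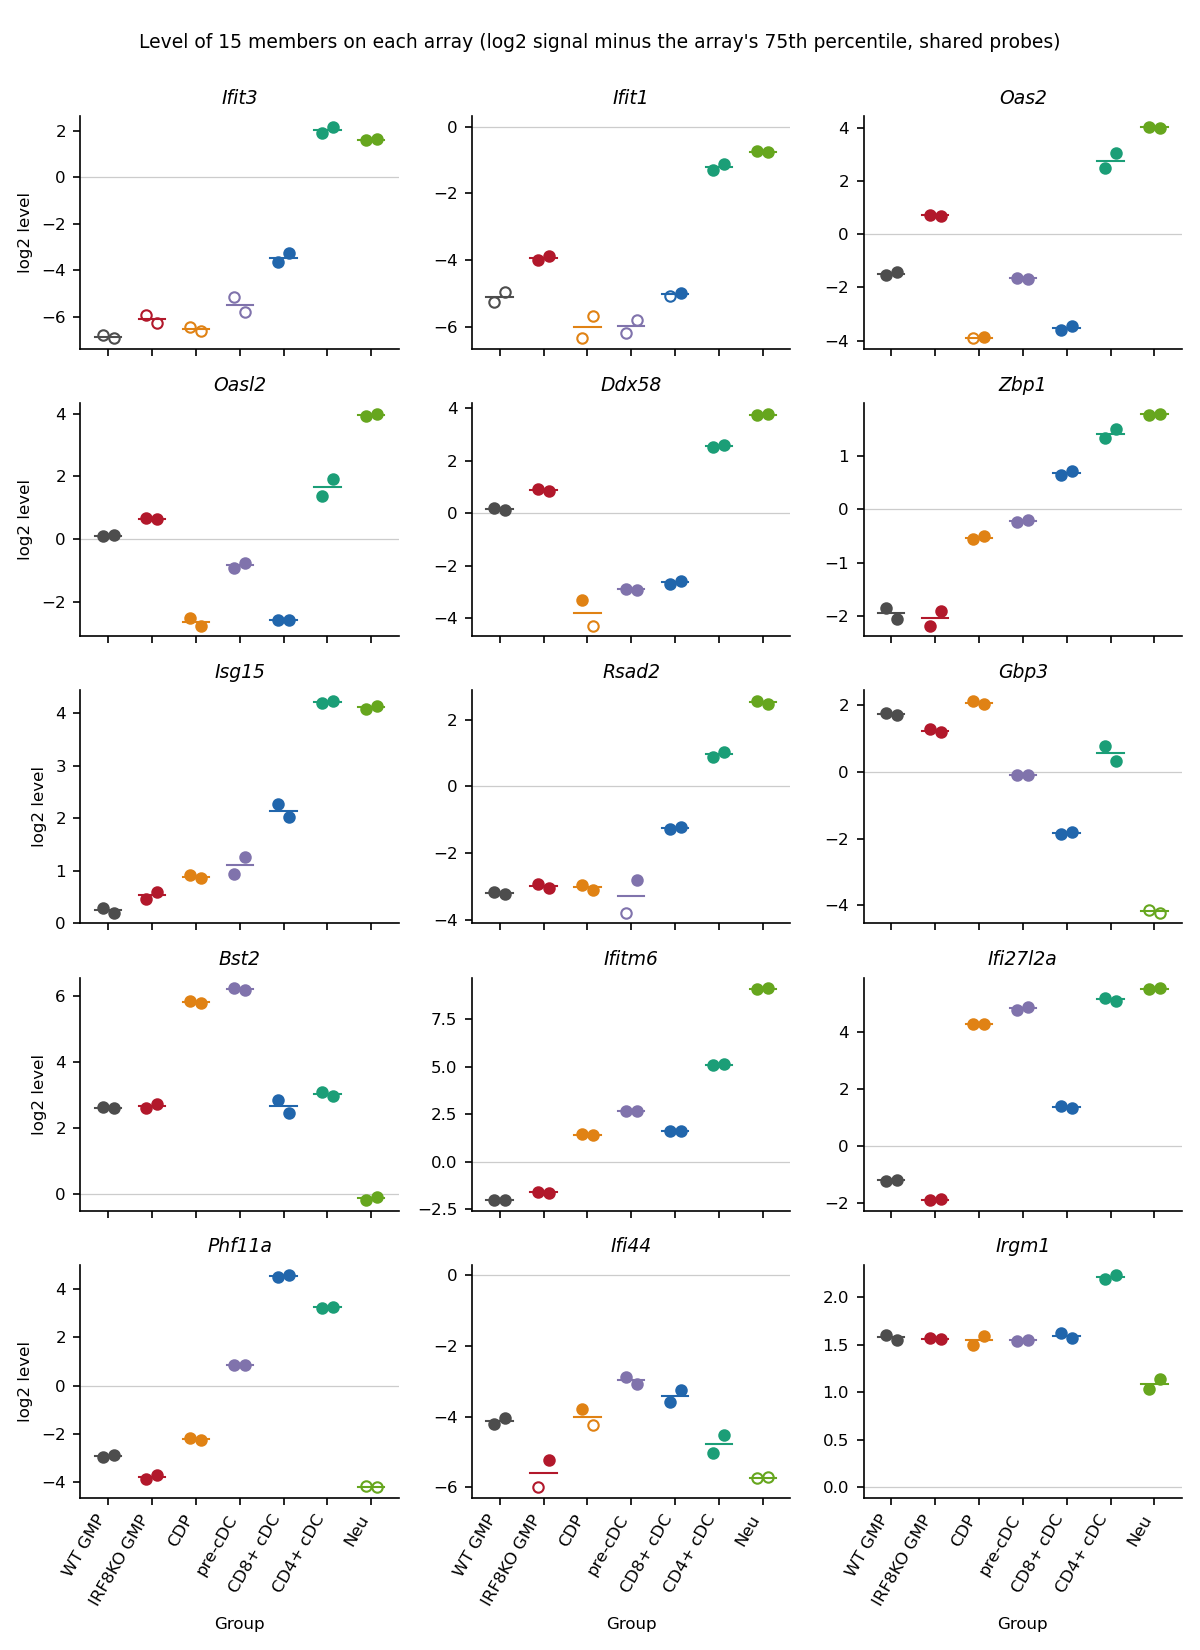
Level of 15 members on each of the 14 arrays, 1 panel per gene. The vertical axis is log2 signal relative to the array's 75th percentile over the shared probes. Each dot is an array, and open dots are not well above background. Ifitm6 runs from -1.99 and -2.01 in WT GMP to 9.08 and 9.14 in neutrophils. Bst2 peaks in CDP and pre-cDC, and Phf11a peaks in CD8+ cDC at 4.52 and 4.58.

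CD8+ cDC held less than neutrophils of most of these transcripts, and the 2 groups were on 1 slide. Of 42 members tested, 7 were higher in CD8+ cDC and 31 lower, 25 of the latter by at least 2-fold, with a median log2 difference of -1.22. Over all 12817 genes tested, 85.8% were called, 43.9% higher and 41.9% lower, and 26.2% were at least 2-fold lower. With the 4 arrays of that slide fitted alone, 7 members were higher and 29 lower. Phf11a, Gbp3 and Ifi44 were tested through the CD8+ cDC arrays alone and Ifit1 through the Neu arrays alone. Of the 38 members above background in both groups, 4 were higher and 30 lower. This comparison shares the neutrophil arrays with the one above and also sets spleen against bone marrow. The red cell list read 8.48 to 8.56 in CD8+ cDC against 3.78 to 3.83, 2 of 3 markers being above background in both groups and Klf1 in neither, and the B cell list 2.38 to 2.41 against 0.48 to 0.57 (2 and 3 of 4). The part of these markers in the result was not tested.

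Oas2 read -2.50 and -2.36 in CD8+ cDC, 172-fold below its level in neutrophils (limma adjusted p = 6.36e-11). Ifitm1 read -0.21 and -0.38 against 7.09 and 7.11, a log2 difference of -7.40 (SE 0.08). Rtp4, Cmpk2, Oasl2 and Ddx58 followed at -7.10, -6.41, -6.40 and -6.28. For each of these genes the arrays of the groups lay far apart. The 7 members higher in CD8+ cDC were Phf11a, Bst2, Gbp3, Ifi44, Herc6, Ifi35 and Irgm1. Phf11a read 5.61 and 5.68, at least 371-fold above neutrophils (adjusted p = 3.42e-11), and Gbp3 at least 4.47-fold above. Ifi44 was at least 1.49-fold higher, a call that ended under normexp (0.20, adjusted p = 0.0689). Usp18, Dtx3l, Trim30a and Ifit2 were not called, their differences reaching 0.24 at most.

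Between the splenic dendritic cells, the CD4+ cDC carried more of most of the tested members. On the shared probes, 34 of 42 members tested were higher in CD4+ than in CD8+ cDC and 6 lower, 26 and 3 of them by at least 2-fold, and the median log2 difference was 1.49. Over all 13547 genes tested, 74.9% were called, 36.3% higher and 38.6% lower, and the median was -0.02. By at least 2-fold, 16.4% of all genes were higher and 19.3% lower. Of the tested members, 41 were above background in both groups, and Ifit1 on both CD4+ cDC arrays but not on both CD8+ arrays.

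Rtp4 read 3.656 and 3.997 in CD4+ cDC and -2.55 and -2.51 in CD8+ cDC, 82.0-fold higher (limma adjusted p = 1.06e-09). Oas2 read 2.48 and 3.03 against -3.59 and -3.47, 77.6-fold higher (adjusted p = 5.25e-09). Ifit3 read 1.90 and 2.18 against -3.64 and -3.25 (log2 difference 5.49, SE 0.22). The CD4+ arrays were the higher pair each time, with no overlap. On the same probes neutrophils read 4.69 and 4.68 for Rtp4, 4.04 and 3.99 for Oas2 and 1.62 and 1.62 for Ifit3. The membrane proteins were higher 6 of 6, led after Rtp4 by Ifitm1 (4.29) and Ifitm6 (3.52), with Bst2 last (0.37, a call lost without CD4+ cDC replicate 1 or CD8+ cDC replicate 2). Ddx58 was 5.19 higher and Oas1a 4.88, and Isg15, at 4.18 and 4.23 against 2.26 and 2.02, was 2.07 higher (SE 0.12). The nucleotide and RNA enzymes were higher 4 of 4, from Isg20 (2.86) to Samd9l (0.35, but -0.03 with the mean of its probes).

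A few members were lower in CD4+ cDC. Iigp1, an IRG effector that attacks the vacuoles of parasites, read -3.00 and -3.09 against -0.13 and -0.62 (log2 difference -2.67, SE 0.14, limma adjusted p = 5.13e-07). Ifi44 (-1.36), Phf11a (-1.29), Eif2ak2 (-0.72), Oasl1 (-0.67) and Trim30a (-0.55) were also lower, so that the neighbours Oasl2 (4.21) and Oasl1 had opposite signs. Array design, slide and group cannot be told apart here. Markers of other cells differed too, some lists reading higher in CD4+ cDC and others lower. On the CD4+ cDC arrays 6 of 6 neutrophil and 4 of 4 monocyte markers were above background, against 4 and 3 on the CD8+ cDC arrays. For red cell markers it was 3 of 3 against 2, and for T and NK cell markers 4 of 4 against 1. The log2 of the summed linear level of the neutrophil list was 4.67 to 5.05 against 3.22 to 3.31, of the monocyte list 3.64 to 3.75 against 0.43 to 0.57, of the red cell list 8.75 to 9.19 against 7.39 to 7.46, of the T and NK cell list -0.78 to -0.26 against 0.55 to 0.61, and of the plasmacytoid dendritic cell list 4.88 to 5.25 against 6.94 to 7.22 (6 and 5 of 6 markers above background). Of these markers, Mmp8, F13a1, Klf1, Cd3g, Klrb1c and Ncr1 were not above background on any CD8+ cDC array. The B cell list read 0.97 to 1.20 in CD4+ cDC against 1.28 to 1.32, with 3 and 2 of 4 markers above background on both arrays. The part of all these markers in the result was not tested.

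**Figure D3:**
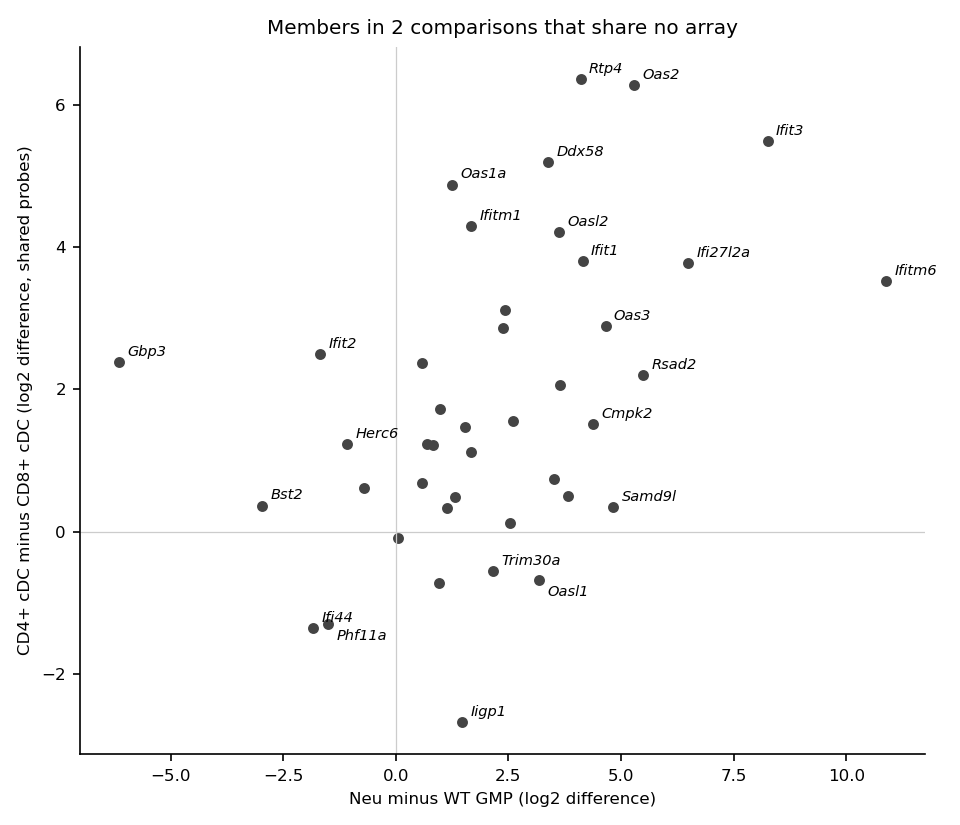
Log2 difference of each of 42 tested members between neutrophils and WT GMP (horizontal) and between CD4+ and CD8+ cDC (vertical), which share no array; each point is 1 member. Most points lie in the upper right, as each comparison called 34 members higher. Of these 29 were shared, where lists of this length had to share at least 26. Over all genes, 15.2% were higher in both. Bst2, Gbp3 and Ifit2 are lower in neutrophils but higher in CD4+ cDC.

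The neutrophil and CD4+ cDC comparisons use no array in common. Each called 34 of the same 42 tested members higher, so that at least 26 had to be shared, and 29 were (85.3% of either list). The number shared is thus close to the fewest that lists of this length allow. At 4-fold or more there were 21 and 18, and 13 were shared (61.9% and 72.2%): Ddx58, Ifi27l2a, Ifit1, Ifit3, Ifitm3, Ifitm6, Isg15, Isg20, Oas2, Oas3, Oasl2, Rsad2 and Rtp4. Across the 42 members the differences had a Pearson r of 0.44 and a Spearman rho of 0.47, a description across genes that share arrays and scaling within each comparison. Over all 12043 genes tested in both comparisons, 15.2% were called higher in both and 1.84% by at least 4-fold in both, against 69.0% and 31.0% of the members. Of the 13, 10 were in the promoter table, and the 5 with a match before the start are the ones printed above.

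From GMP to CDP the list split into members that rose and members that fell. Of 40 members tested, 18 were higher in CDP and 16 lower, 9 of each by at least 2-fold, with a median log2 difference of 0.18. Over all 11899 genes tested, 78.0% were called, 51.9% higher and 26.1% lower, and the median was 0.31. By at least 2-fold, 22.2% of all genes were higher and 12.5% lower. The members' share of calls upward was thus near the background, and their share downward above it, also at 2-fold. Of the members' calls 52.9% were higher, and 36.7% with the percentile taken over probes detected on all arrays. Ddx58, Ifi44, Oas2 and Oas3 were tested through the GMP arrays alone. Of the 36 members above background in both groups, 18 were higher and 13 lower. The CDP arrays were the dimmest of the set, and small differences here depend on the scaling. The summed level of the monocyte list was 8.14 to 8.18 in CDP against 4.49 to 4.62 in WT GMP (4 and 3 of 4 markers above background). That of the neutrophil list was 0.45 to 0.46 against 3.40 to 3.43 (2 and 4 of 6, Ltf in neither), and that of the red cell list 0.35 to 0.50 against 2.98 to 2.99 (1 and 3 of 3). The part of these markers in the result was not tested.

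The largest rise was in Ifi27l2a, from -0.03 and 0.03 in GMP to 5.59 and 5.62 in CDP (log2 difference 5.60, SE 0.05, limma adjusted p = 8.66e-10). Ifitm6 rose from -0.80 and -0.82 to 2.76 and 2.76. Bst2 went from 3.82 and 3.79 to 7.15 and 7.12 (log2 difference 3.33, SE 0.12, adjusted p = 1.26e-07). These 3 genes were thus far above their GMP level on both arrays. Cmpk2 was 2.96, Ifi204 2.50, Trim30a 2.14, Zbp1 1.56 and Usp18 1.35 higher.

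The members lower in CDP included the 5 tested OAS genes and 2 of 5 tested sensors of nucleic acid, of which 2 others were higher. Rtp4 fell from 1.51 and 1.60 to -2.05 and -1.98 (log2 difference -3.57, SE 0.06, limma adjusted p = 5.09e-09). Ddx58 fell from 1.41 and 1.32 to -2.01 and -2.94 (-3.84, SE 0.25, adjusted p = 2.96e-06). Isg20 (-2.63), Oasl2 (-2.60), Oas2 (-2.28), Gbp2 (-2.002), Iigp1 (-1.84), Ifit2 (-1.45) and Oasl1 (-1.12) were lower as well. For Ddx58 and Oas2 only 1 of the 2 CDP arrays was above background, and their differences are fitted values. Among the OAS genes, Oas3, not above background in CDP, turned to 0.51 after normexp and the call of Oas1a (-0.27) ended under array median scaling. In contrast 7 of 8 genes of the ISG15 and ubiquitin group were called higher, Isg15 itself by 0.78, but 4 of these calls ended with the percentile over detected probes, Isg15 (0.26) among them, and 2 of the 4 turned sign.

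From CDP to pre-cDC the members again went both ways, with 18 of 40 tested higher and 17 lower, 7 and 6 of them by at least 2-fold, and a median log2 difference of 0.03. Over all 11481 genes tested, 84.2% were called, 23.9% higher and 60.3% lower, 12.4% and 30.2% by at least 2-fold, and the median was -0.54. Among the members' calls 51.4% were higher, but 28.6% under array median scaling and 61.3% after quantile normalization. With the percentile over detected probes 24 were higher and 8 lower, so the split depends on the scaling. The members' median stayed above that of all genes under array median scaling (-0.44 against -1.01) and with the percentile over detected probes (0.58 against 0.01). Without the filter on dim probes the 2 medians were close (0.08 against 0.07). No member called with a difference of at least 2-fold in this step changed sign under a setting tried. Ddx58, Ifi44, Oas2 and Oas3 were tested through the pre-cDC arrays alone, and Ifit2 and Rsad2 through the CDP arrays alone. Of the 34 members above background in both groups, 14 were higher and 16 lower. The neutrophil list read 5.64 to 5.70 in pre-cDC against 0.45 to 0.46 in CDP (4 and 2 of 6 markers above background, Cxcr2 in neither), the red cell list 2.98 to 3.11 against 0.35 to 0.50 (2 and 1 of 3) and the monocyte list 5.80 to 5.86 against 8.14 to 8.18 (4 of 4 in each). Their part in the result was not tested.

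Phf11a rose from -0.87 and -0.92 to 1.95 and 1.92 (log2 difference 2.83, SE 0.06, limma adjusted p = 7.54e-08). Iigp1 rose from -2.14 and -2.08 to 0.30 and 0.38, Samd9l was 2.40, Oas2 2.01, Ifitm3 1.79 and Oasl2 1.56 higher. Ifitm1 fell from 4.78 and 4.78 to 0.794 and 0.9996 (-3.88, SE 0.08, adjusted p = 7.66e-08), so that Ifitm1 and its neighbour Ifitm3 had opposite signs. Gbp3 fell by 2.42 on the log2 scale. Oas1a (-1.18) and Ifih1 (-1.16) depend on the probe: a second Oas1a probe read 0.03, and the mean of the Ifih1 probes gave -0.03. Bst2 stayed high, at 7.34 and 7.24, and was not called (0.16), though it was called higher under other scalings, up to 0.86 in the authors' deposited table. Bst2 is also a marker of plasmacytoid dendritic cells, and 6 of 6 other markers of those cells were above background on the pre-cDC arrays (log2 of the summed level 8.999 to 9.005), 4 of 6 on the CDP arrays (7.60 to 7.60, without Ccr9 and Klk1) and 5 of 6 on the CD8+ cDC arrays (8.04 to 8.31). Their part in the level of Bst2 was not tested.

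**Figure D4:**
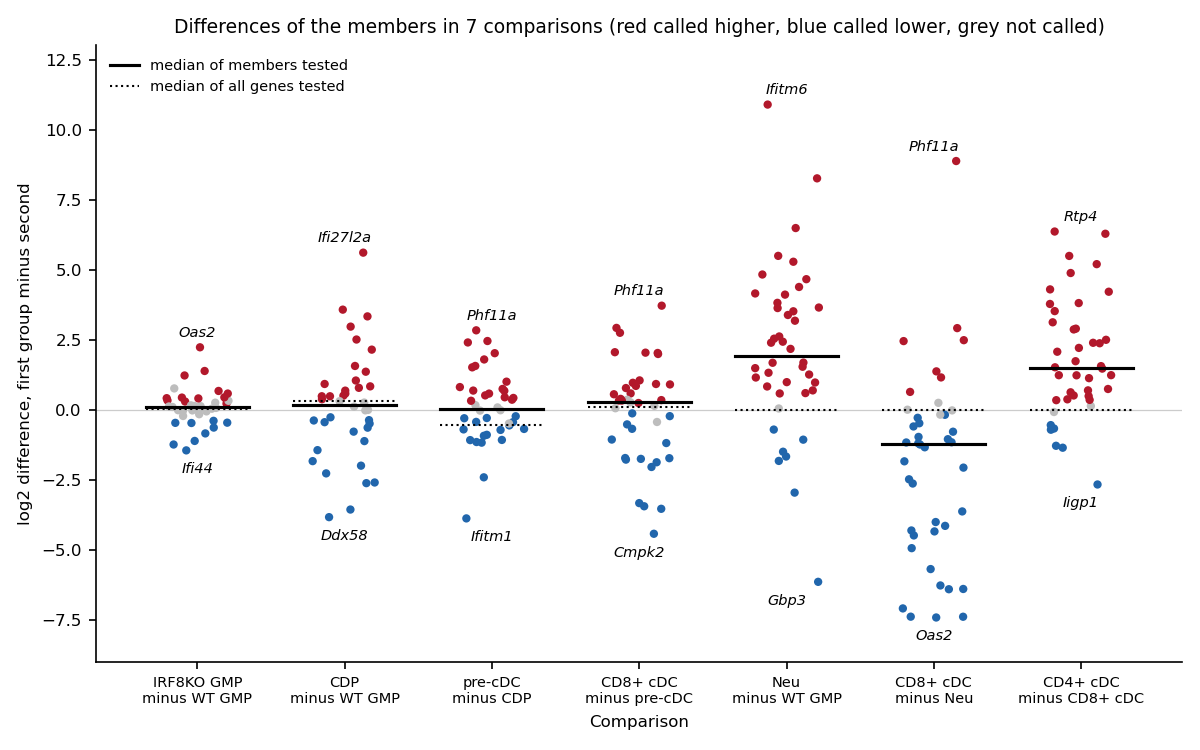
Log2 difference of every tested member (dots) in each of the 7 comparisons, with red for called higher, blue for called lower and grey for not called; the solid line is the median of the members and the dotted line that of all genes tested. The members' median stands clear of the dotted line for neutrophils against GMP (1.92), for CD8+ cDC against neutrophils (-1.22) and for CD4+ against CD8+ cDC (1.49). It lies near that line for the GMP labelled IRF8KO (0.10). From CDP to pre-cDC the members' median is 0.03, against -0.54 for all genes.

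From pre-cDC to CD8+ cDC, 20 of 41 members tested were higher and 16 lower, 8 and 12 of them by at least 2-fold, with a median log2 difference of 0.26. Over all 12597 genes tested, 74.7% were called, 40.3% higher and 34.4% lower. By at least 2-fold, 17.0% of all genes were higher and 15.9% lower. Bone marrow and spleen, and slide, are confounded with this step. The red cell list read 8.48 to 8.56 in CD8+ cDC against 2.98 to 3.11 in pre-cDC (2 of 3 markers above background in each, Klf1 in neither), the B cell list 2.38 to 2.41 against -1.85 to -1.19 (2 and 0 of 4) and the monocyte list 1.53 to 1.66 against 5.80 to 5.86 (3 and 4 of 4). The part of these markers in the result was not tested. Ifit2, Ifit3 and Rsad2 were tested through the CD8+ cDC arrays alone. Of the 38 members above background in both groups, 17 were higher and 16 lower. For Ifit2 and Rsad2 only 1 of the 2 pre-cDC arrays was above background, and their differences are fitted values.

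Phf11a rose further, from 1.95 and 1.92 to 5.61 and 5.68 (log2 difference 3.71, SE 0.06, limma adjusted p = 3.85e-09). Oasl1 was 2.92, Gbp2 2.74, Rsad2 2.05, Isg20 2.02, Ifih1 1.99 and Isg15 1.04 higher. Ifit3 was at least 1.30-fold higher, a call that ended under normexp (0.14, adjusted p = 0.21). The membrane proteins went down, 5 of 6 called lower, and the sixth, Rtp4 (0.14), was not called; it was called higher under array median scaling (0.39), quantile normalization (0.17) and in the authors' table (0.21), and stood at -0.06 after normexp. Bst2 fell from 7.34 and 7.24 to 3.94 and 3.56 (-3.54, SE 0.12, adjusted p = 8.4e-08), and Ifitm3 from 5.92 and 6.06 to 2.70 and 2.60. Cmpk2 fell from 2.60 and 2.53 to -1.91 and -1.82 (-4.43, SE 0.06, adjusted p = 1.27e-09) and Ifi27l2a by 3.45. Neighbouring genes therefore parted: Cmpk2 fell while Rsad2 rose, Oasl2 (-1.73) fell while Oasl1 rose, and Gbp3 (-1.73) fell while Gbp2 rose.

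In the GMP labelled IRF8KO most members stayed close to their WT level. Of 41 members tested, 13 were higher than in WT GMP and 9 lower, 3 of each by at least 2-fold, and the median log2 difference was 0.10. Over all 12156 genes tested, 25.2% were called, 15.2% higher and 9.98% lower, 2.48% and 2.70% by at least 2-fold, with a median of 0.04. Calls were thus more frequent among the members than among all genes in both directions, with small differences. Ifit1 was tested through the arrays labelled IRF8KO alone and Ifi44 through the WT arrays alone. Both count as at least 2-fold by the fit, though the bound given below for Ifit1 is under 2-fold. Of the 39 members above background in both groups, 12 were higher and 8 lower. The 4 arrays shared a slide, and with those arrays fitted alone 16 members were higher and 9 lower.

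Oas2 was the member that differed most, at 1.96 and 1.91 on the arrays labelled IRF8KO against -0.35 and -0.23 in WT GMP (log2 difference 2.22, SE 0.07, limma adjusted p = 1.42e-06). Rtp4 read 2.97 and 2.90 against 1.51 and 1.60 (1.38, SE 0.06, adjusted p = 4.77e-06). Ifit1 was at least 1.79-fold higher (adjusted p = 0.00644). In all 3 the groups did not overlap, but Ifit1 was not above background on the WT GMP arrays. Gbp2 (0.67), Oasl2 (0.57), Samd9l (0.44), Ifitm6 (0.43), Ifi204 (0.41) and Parp14 (0.40) were called higher with smaller differences, and Dhx58, Trim25, Dtx3l and Cmpk2 lay between 0.36 and 0.21. The calls of Dtx3l and Cmpk2 ended when any 1 of the 4 arrays was left out.

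Usp18 was lower on the arrays labelled IRF8KO, at -1.62 and -1.62 against -0.46 and -0.54 (log2 difference -1.12, SE 0.08, limma adjusted p = 5.55e-05). Ifitm1 read 4.24 and 4.12 against 5.41 and 5.44 (-1.25, SE 0.08, adjusted p = 4.94e-05). Ifi44 (-1.46), Phf11a (-0.85), Ifi27l2a (-0.64), Gbp3 (-0.48), Oasl1 (-0.47), Isg20 (-0.47) and Igtp (-0.40) were lower too. Ifi44 was above background on only 1 of the 2 arrays labelled IRF8KO. The calls of Gbp3, Oasl1, Isg20 and Igtp, and of Ifi204 and Trim25 above, ended under array median scaling. Ddx58 (0.76, adjusted p = 0.0638) and Isg15 (0.31, adjusted p = 0.0906) did not pass. Markers of other cells also differed between these groups: 6 of 6 neutrophil markers were above background on the arrays labelled IRF8KO and 4 of 6 in WT GMP, where Ltf was on neither array. The log2 of the summed linear level of that list was 5.28 to 5.37 against 3.40 to 3.43, of the monocyte list 6.42 to 6.55 against 4.49 to 4.62, and of the red cell list -1.54 to -1.40 against 2.98 to 2.99. Their part in the result was not tested.

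Genes of the interferon pathway itself were taken from a separate list of 29, of which 28 were measured. Among the ligands, Ifnb1, Ifna4 and Ifne did not rise well above background in the 6 groups of the larger design. Ifnl3, a type III interferon, was above background on both arrays of all 6, and read 2.31 and 2.37 in CD8+ cDC, 3.19 above pre-cDC on the log2 scale (SE 0.14, limma adjusted p = 3.71e-07). Ifna1 was above background on both arrays of neutrophils, CD8+ cDC and the GMP labelled IRF8KO, and both it and Ifnl3 were called higher in neutrophils than in WT GMP. In neutrophils against WT GMP, 19 of 21 tested pathway genes were higher (90.5%) and 1 lower, and the 19 include 6 of 6 receptors. Over all genes, 92.4% were called, in nearly equal parts higher and lower. Ifnlr1 and Ifna1 were not above background in WT GMP and were tested through the neutrophil arrays alone. Ifnlr1, a chain of the type III receptor, was at least 758-fold higher, and Ifnar1, a chain of IFNAR, was 2.17 higher on the log2 scale (limma adjusted p = 8.5e-08). Of the kinases and transcription factors 7 of 8 were higher, among them Irf7, itself an interferon-stimulated factor, by 3.48 (SE 0.16) and Irf9 by 2.18. The kinase gene Tyk2 was lower (-0.93). The inhibitor gene Socs3 was 5.30 higher.

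In the other comparisons the pathway genes counted as follows. From GMP to CDP, 15 of 19 tested were higher (78.9%, against 51.9% of all genes) and 2 lower. From CDP to pre-cDC 4 of 19 were higher and 13 lower (68.4%, near the 60.3% of all genes). Irf7 (3.49, SE 0.16) and Tyk2 (1.72, SE 0.17) were the largest of the rises, and Socs1 was tested through the CDP arrays alone. From pre-cDC to CD8+ cDC 11 of 23 were higher (47.8%, against 40.3% of all genes) and 3 lower, led by Ifnlr1, at least 13.2-fold. In that step Ifnlr1, Ifna1, Ifna2, Ifna5 and Socs1 were tested through the CD8+ cDC arrays alone. CD8+ cDC against neutrophils had 6 higher and 12 lower of 23 (52.2% lower, against 41.9% of all genes), with Ifna2 and Ifna5 tested through the CD8+ cDC arrays alone. In CD4+ against CD8+ cDC 15 of 25 were higher and 7 lower, against 36.3% and 38.6% of all genes. Ptpn6 (1.75) and Jak2 (1.46) rose, while Ifnlr1 (-3.00) and Ifngr1 (-1.12) fell. Of the 6 ligands tested 4 were lower and 1 higher, each by at least 2-fold. Of the 5 inhibitors 4 were higher, by up to 1.89. In the GMP labelled IRF8KO 8 of 20 were higher and 2 lower, against 15.2% and 9.98% of all genes. None of these differed by as much as 1 on the log2 scale, and Ifna1 was tested through the arrays labelled IRF8KO alone.

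**Figure D5:**
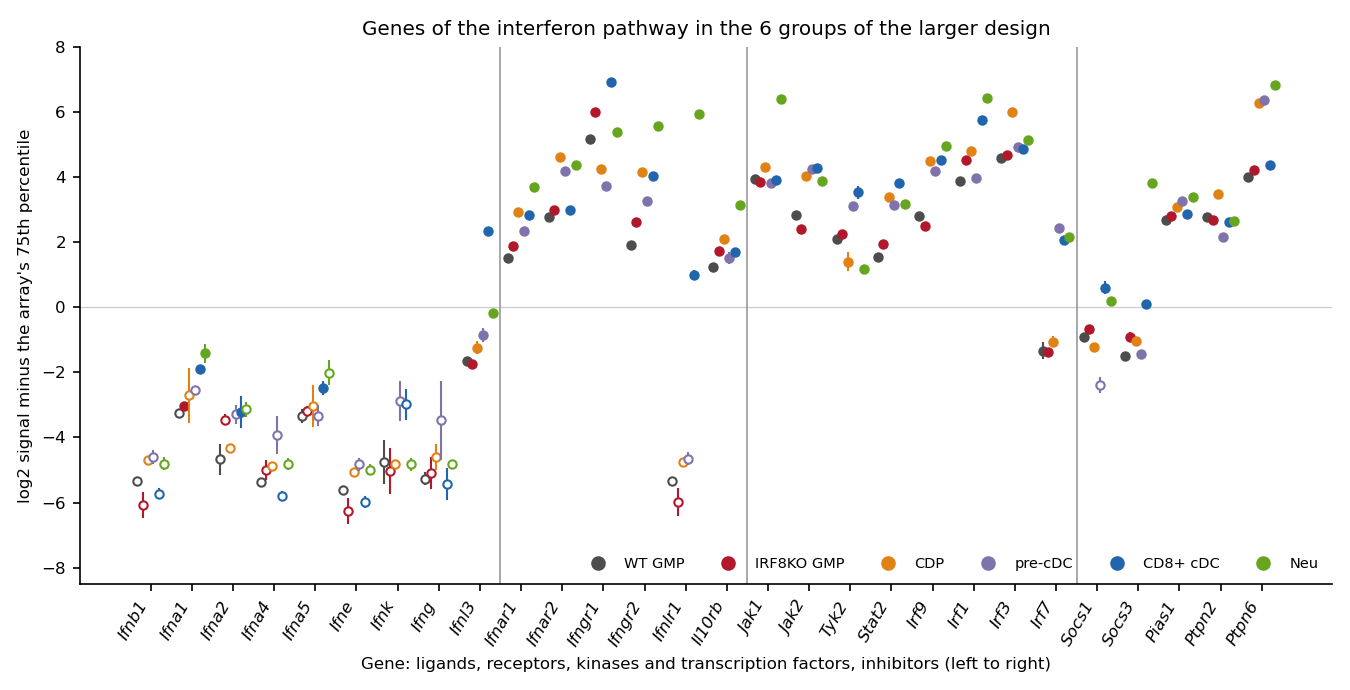
Level of the 28 measured pathway genes in the 6 groups of the larger design, by role (ligands, receptors, kinases and transcription factors, inhibitors); the vertical axis is log2 signal relative to the array's 75th percentile, bars span both arrays and open marks are not well above background on both. Ifnlr1 is seen in neutrophils and CD8+ cDC only, Irf7 is high in pre-cDC, CD8+ cDC and neutrophils, and Socs3 is highest in neutrophils.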

How the data were processed

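Total RNA was labelled with the Agilent Low Input Quick Amp kit, per the labels' protocols. The deposited scanner files hold spot intensities made by Agilent Feature Extraction 10.7.3.1, per the file headers, for 55681 probes of a larger design (12 arrays) or 39429 of a smaller one (CD4+ cDC); its processed signal is corrected for background and spatial trend within an array, with no normalization between arrays. The authors' deposited table of intensities on a linear scale, whose sorted values are the same for each array, was an alternative, and the steps behind it are not stated in the sources used here. Control and outlier spots were left out, spots of a probe averaged, log2 taken and each array's 75th percentile subtracted. Probes were named through RefSeq accessions (GRCm38.p6, names only; 26762 probes had 1 symbol, 28919 none), and a gene took its brightest probe. No spot was saturated.

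Comparisons were fitted with limma 3.58.1 (lmFit, contrasts, eBayes, two-sided; R 4.3.3, package data.table, 1.17.8) on the 12 arrays together, and CD4+ against CD8+ cDC on 14 arrays over shared probes; the procedure was tested on simulated data. SE comes from the fit. Alternatives were other scalings, normexp on the median signal (offset 50; the mean signal was not used here), no filter, the mean of a gene's probes, the replicate number as a block, the slide as a random block, and leaving out each array. All 43 members with a probe may be named, called ones in order of size. The members and lists were chosen with earlier results of these data known. From the pathway and marker lists, 3 genes are not reported here. Tables and figures used Python 3.11.15, pandas 2.3.3 and matplotlib 3.10.9. Precision is limited by 2 arrays per group and by signal over background.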

Additional observations from a re-analysis of the deposited data

How the results depend on the processing

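The members' counts of calls held within 1.5 times of the reported ones under most of the settings tried, with these exceptions. With normexp background correction, at least 2-fold calls numbered 3 lower for neutrophils against WT GMP, 3 higher for CD8+ cDC against neutrophils, 2 lower for pre-cDC against CDP and 1 lower for the GMP labelled IRF8KO. Under array median scaling, pre-cDC against CDP had 8 higher and 12 at least 2-fold lower, CD8+ cDC against pre-cDC 13 at least 2-fold higher, and the GMP labelled IRF8KO 5 lower. With the scaling percentile over detected probes, CDP against GMP had 11 higher, and pre-cDC against CDP 14 at least 2-fold higher, 2 at least 2-fold lower and 8 lower. Quantile normalization left 1 at least 2-fold lower in CD4+ against CD8+ cDC. Signs turned under normexp for Herc6 (0.020), Phf11a (0.076) and Ifi44 (0.40, limma adjusted p = 0.00143) in neutrophils against WT GMP and for Oas3 (0.51) in CDP against WT GMP, and with the mean of its probes for Samd9l (-0.029) in CD4+ against CD8+ cDC. Ifi35, not called in neutrophils against GMP, was called lower under array median scaling (-0.43), normexp (-0.27) and the percentile over detected probes (-0.26). For all of these the cause was not tested. In the neutrophil comparison 30 to 34 members were higher and in CD4+ against CD8+ cDC 31 to 35. Of 95 calls under 2-fold, 21 changed sign under some setting, 10 of them from CDP to pre-cDC, and 6 were then called the other way: 4 from CDP to pre-cDC, 1 (Oas3) in CDP against WT GMP and 1 (Iigp1, -0.49 but 0.51 with the mean of its probes) in CD8+ cDC against neutrophils. Array median scaling moved the median of all genes from CDP to pre-cDC by -0.47. Leaving out 1 array gave 34 higher for neutrophils against WT GMP, 32 to 34 for CD4+ against CD8+ cDC, 29 to 30 lower for CD8+ cDC against neutrophils and 11 to 12 higher for the GMP labelled IRF8KO. Same-numbered arrays did not deviate together (correlations of -0.06 to 0.04 over 15 pairs of groups). The labels number the 2 arrays of each group exp1 and exp2, and these correlations cannot exclude a shared experiment. With the replicate number as a block, 34 members were higher in neutrophils than in WT GMP. In that setting 34 were higher in CD4+ than in CD8+ cDC and 12 in the GMP labelled IRF8KO. The slide as a random block had a consensus correlation of 0 and gave no value of its own. Signal over background limits the members near background: the fitted folds of Ifit1, Ifit3, Ifi44, Oas3, Gbp3 and Phf11a depend on how it is subtracted, and 2 arrays per group limit every comparison.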
